A study of Mus musculus with 9 samples.

Results

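The mRNA levels of 10 hypoxia and HIF-1 target genes were followed in MC38 cells, a mouse colon carcinoma line grown in culture. The members were taken by symbol (Hif1a, Egln1, Egln3, Pdk1, Bnip3, Bnip3l, Vegfa, Ndrg1, Adm and Ankrd37), and all 10 were found among the 16509 genes of the deposited table. The groups compared had 3 libraries each. Ctrl cells received the vehicle, which the sample labels give as DMSO and the study's methods as PBS. Cu-Cys cells received the coordination particle of copper and cystine. Cadict cells received the same copper and cystine particle loaded with glucose oxidase (GOx), an enzyme that consumes glucose and oxygen. It was also coated with GE11, a peptide that binds EGFR, joined to a DSPE-PEG anchor. The dose and exposure time of the sequenced cultures are not given in the sources used here. Cadict differed from Cu-Cys in GOx, in GE11 and in the anchor of GE11, whose parts in any difference cannot be told apart. All groups are 1 cell line, and the labels do not say whether the 3 libraries of a group came from separate cultures. The study's methods describe replicates in general as biological and in vitro work as repeated independently, and do not describe the sequenced cultures one by one. The p-values measure the spread between these libraries, part of which may be technical. In such bulk RNA, fewer cells and less RNA per cell cannot be told apart.

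HIF-1 is a transcription factor made of an oxygen-regulated alpha subunit (Hif1a) and a constitutive partner (Arnt). In oxygenated cells, prolyl hydroxylases such as Egln1 and Egln3 use oxygen to mark the alpha subunit, which the von Hippel-Lindau protein (Vhl) then delivers for degradation. When oxygen is short the subunit accumulates largely without a change in its own mRNA, and HIF-1 switches on genes for glycolysis, mitochondrial removal and blood vessel growth, together with the hydroxylases themselves. HIF-1 activity is therefore regulated mostly at the protein level, which was not measured here.

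The total expected count per library was between 17905771 and 18293056, so that a count of 3, the most that a count of 0 allows, corresponded to 0.13 to 0.261 CPM. CPM are counts scaled to library size and then by TMM, which sets libraries on a common scale from the bulk of their genes, and these floors cover counting error only, whereas the 95% intervals of fold changes also hold the spread between libraries. The TMM factors were 1.26 to 1.27 in Ctrl, 1.21 in Cu-Cys and 0.64 to 0.67 in Cadict. The choice of scale therefore moved each Cadict comparison: the median log2 fold change of all 11949 genes tested, Cadict against Ctrl, was -0.13 with TMM, -0.01 with DESeq2 size factors and -1.08 with library totals alone. On log2(TPM + 1) that median was -1.13, so a lower TPM in Cadict is read against a scale on which the median gene also fell. Cadict replicate 2 stood apart from the other Cadict libraries, with a chi-square per degree of freedom of 16.1 and 25.4 against replicates 1 and 3, where these differed from each other by 3.87. The line is epithelial by origin, but of 6 epithelial markers that the table held, 4 stayed under 1 TPM in every library (Epcam, Krt8, Krt18 and Vil1), and the detected ones were Krt19 and Cdh1. The summed epithelial level was 4.22 to 6.24 TPM in Ctrl, 3.5 to 3.95 in Cu-Cys and 11.48 to 13.21 in Cadict. The higher sum in Cadict came mostly from Krt19, at a mean of 2.25 TPM in Ctrl and 8.957 in Cadict, where Cdh1 was 2.523 and 2.7. The sum of 4 fibroblast markers, led by Pdgfra and Col1a1, was 19.79 to 22.89 TPM in Ctrl, 10.04 to 10.31 in Cu-Cys and 2.45 to 3.27 in Cadict. Leukocyte and endothelial sums stayed at or below 1.28 TPM. What part these marker differences had in the results below was not tested.

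HIF-1 binds DNA at a short core, ACGTG or GCGTG. The RefSeq promoter table (GRCm38.p6) held windows for 8 of the 10 members, with none for Ndrg1 and Bnip3l. The 250 bases before the annotated start are printed for the 5 members with a window that differed between Cadict and Ctrl by the threshold used below. Sequences run 5′ to 3′ on the gene's strand, and capitals mark ACGTG or GCGTG on either strand (CACGT or CACGC on the other). The coordinates are chr7:138909507-138909756 (reverse strand) for Bnip3, chr2:71872974-71873223 (forward) for Pdk1, chr8:124949255-124949504 (reverse) for Egln1, chr12:54203875-54204124 (reverse) for Egln3 and chr17:46032378-46032627 (reverse) for Vegfa.
Bnip3: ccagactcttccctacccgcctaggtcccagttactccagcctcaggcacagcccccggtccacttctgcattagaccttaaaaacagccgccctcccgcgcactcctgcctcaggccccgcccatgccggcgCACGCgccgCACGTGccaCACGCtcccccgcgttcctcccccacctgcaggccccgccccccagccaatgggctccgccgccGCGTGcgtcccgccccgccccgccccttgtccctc
Pdk1: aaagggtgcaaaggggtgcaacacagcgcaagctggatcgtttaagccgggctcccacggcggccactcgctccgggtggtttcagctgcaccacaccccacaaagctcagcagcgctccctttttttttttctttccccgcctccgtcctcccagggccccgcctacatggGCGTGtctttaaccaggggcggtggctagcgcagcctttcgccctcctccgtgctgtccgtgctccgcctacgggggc
Egln1: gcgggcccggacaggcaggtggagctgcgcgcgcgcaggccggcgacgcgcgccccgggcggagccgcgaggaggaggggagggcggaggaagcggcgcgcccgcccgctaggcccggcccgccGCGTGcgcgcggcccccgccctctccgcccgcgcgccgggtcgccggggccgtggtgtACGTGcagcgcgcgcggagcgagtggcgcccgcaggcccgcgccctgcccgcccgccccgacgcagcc
Egln3: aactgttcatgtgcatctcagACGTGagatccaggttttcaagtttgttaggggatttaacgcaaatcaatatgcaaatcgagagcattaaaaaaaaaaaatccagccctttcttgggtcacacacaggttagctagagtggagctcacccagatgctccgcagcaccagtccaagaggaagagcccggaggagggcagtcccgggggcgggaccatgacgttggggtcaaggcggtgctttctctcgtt
Vegfa: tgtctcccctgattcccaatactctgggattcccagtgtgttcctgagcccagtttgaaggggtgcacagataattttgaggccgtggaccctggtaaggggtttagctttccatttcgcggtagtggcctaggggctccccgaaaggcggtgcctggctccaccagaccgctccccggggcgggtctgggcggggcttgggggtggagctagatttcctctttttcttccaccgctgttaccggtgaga
The Bnip3 stretch held 5 matches, 2 of which were the same 6 letters read on both strands (CACGTG at positions -108 and -107). Egln1 held 2 matches, at -126 and -68. Pdk1 held 1 before its start, at -78, and Egln3 held 1 at -229. The Vegfa stretch held 0, and of the second RefSeq starts in the table that of Vegfa had 2 matches and that of Pdk1 had 0. Both second starts lie downstream of the first on the gene's strand, with the second Vegfa stretch at chr17:46025164-46025413. Its 2 matches are therefore not upstream of the first Vegfa start. In the members not printed, the same stretch held 4 matches in Ankrd37 and 3 in Hif1a, neither of which was called. It held 2 in Adm, which was not tested. The number of matches is therefore not read against the direction of change. Such letters are common: over whole windows, which add the 50 bases after the start to the 250 printed, 43.8% of all 32851 RefSeq windows and 62.1% of the 12235 windows of genes tested here held at least 1 match, so that a match in a member's window is a description of sequence and not of binding.

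In Cadict cells the members split. The hydroxylases Egln1 and Egln3, the kinase Pdk1 and the mitophagy receptor Bnip3 were lower than in Ctrl, by 2.87-fold to 7.85-fold, whereas the secreted growth factor Vegfa and the stress-responsive gene Ndrg1 were 3.21-fold and 3.96-fold higher. A gene was called where it differed 2-fold or more with an adjusted p no higher than 0.001 (edgeR's quasi-likelihood test, Benjamini-Hochberg over all genes). By this rule 2 of 9 tested members were called higher, where 20.7% of all genes tested were, and 4 of 9 lower, where 27.1% of all genes were. The share called higher was near that of all genes, and calls in both directions are not particular to the members. Hif1a, Bnip3l and Ankrd37 were not called. On library totals 1 member was called higher (Ndrg1) and 5 lower, where the split over all genes moved from 2472 higher and 3235 lower to 828 and 6148. Leaving out Cadict replicate 2 gave the same counts of 2 and 4.

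Hif1a (Entrez 15251) encodes the oxygen-regulated subunit. It was 154.3, 147.5 and 150.2 CPM in Ctrl, 141.5, 155.1 and 146.6 CPM in Cu-Cys and 278.9, 235.7 and 277.1 CPM in Cadict. The Cadict libraries were all above the others on this scale, with the lowest value in replicate 2, and the Ctrl and Cu-Cys libraries overlapped. The log2 fold change of Cadict against Ctrl was 0.81 ± 0.06 (SE; adjusted p = 5.91e-09), under the fold limit, and its sign turned to -0.14 on library totals and -0.49 on log2(TPM + 1). Its expected counts were 3473 ± 83.4 in Ctrl and 3096 ± 338 in Cadict (SD, n = 3), in libraries of nearly equal total. Against Ctrl, Cu-Cys differed by -0.03 ± 0.06 (adjusted p = 0.747), with a 95% interval from -0.16 to 0.11.

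**Figure D1:**
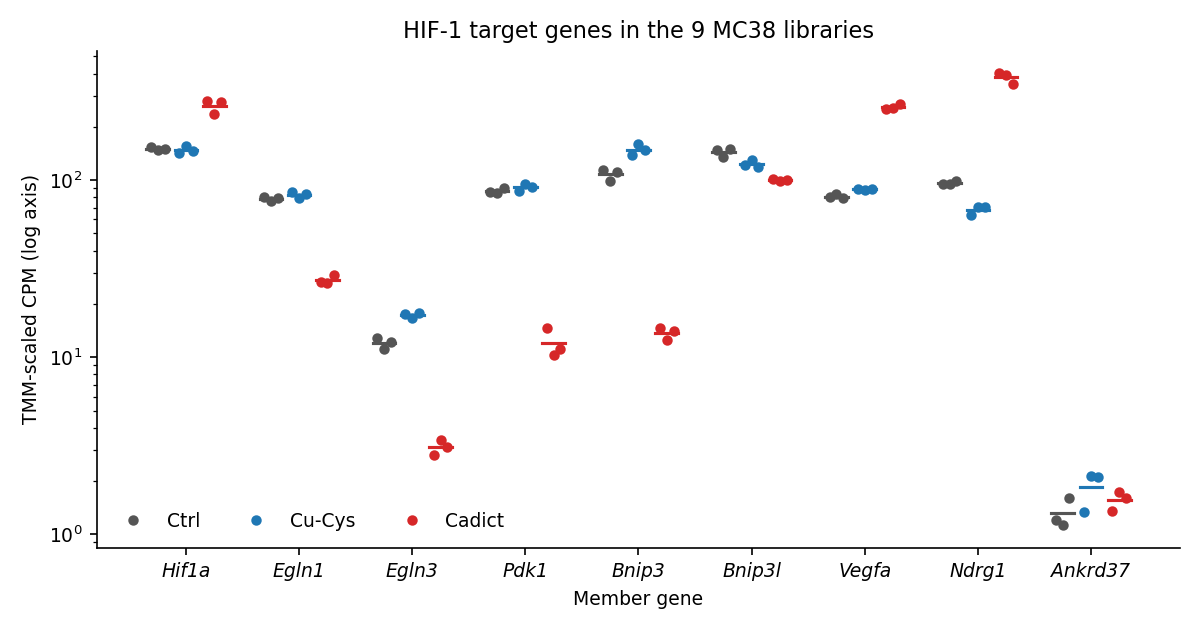
Level of 9 members in each library, as TMM-scaled CPM on a log axis. Each point is 1 library, each bar the mean of a group's 3 libraries. The Cadict points lie below the Ctrl points for Egln1, Egln3, Pdk1, Bnip3 and Bnip3l and above them for Vegfa and Ndrg1, and also for Hif1a, whose sign turns on library totals. Adm, with 1 count in all libraries together, is left out.

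The hydroxylases were the oxygen-sensing members. Egln1 (Entrez 112405), the main HIF prolyl hydroxylase in most cells, was 80.19, 76.28 and 79.31 CPM in Ctrl, 85.27, 78.88 and 84.01 CPM in Cu-Cys and 26.77, 26.15 and 29.3 CPM in Cadict. Egln3 (Entrez 112407), a hydroxylase strongly induced by hypoxia in many cells, was less abundant, at 12.89, 11.17 and 12.21 CPM in Ctrl, 17.58, 16.74 and 17.79 CPM in Cu-Cys and 2.804, 3.399 and 3.107 CPM in Cadict. For both genes every Cadict library lay below every other library, and for Egln3 every Cu-Cys library lay above every Ctrl library. Egln1 fell by 1.52 ± 0.06 on the log2 scale in Cadict against Ctrl (adjusted p = 2.43e-12) and Egln3 fell by 1.96 ± 0.12 (adjusted p = 2.81e-10). Both remained called on library totals, at -2.47 and -2.91.

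Pdk1 (Entrez 228026) encodes a kinase that inactivates pyruvate dehydrogenase and so turns pyruvate away from the mitochondria. It was 85.38, 84.46 and 90.56 CPM in Ctrl, 87.16, 95.16 and 91.03 CPM in Cu-Cys and 14.7, 10.28 and 11.17 CPM in Cadict. The Ctrl and Cu-Cys libraries overlapped and the Cadict libraries were far below both. It fell by 2.85 ± 0.09 on the log2 scale in Cadict against Ctrl (adjusted p = 1.62e-13), a 7.19-fold difference, and without Cadict replicate 2 the log2 fold change was -2.75.

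Bnip3 and Bnip3l are related receptors on the outer mitochondrial membrane that recruit the autophagy machinery to mitochondria. Bnip3 (Entrez 12176) was 114.6, 98.48 and 110.5 CPM in Ctrl, 138.0, 159.3 and 148.8 CPM in Cu-Cys and 14.7, 12.46 and 14.02 CPM in Cadict. Bnip3l (Entrez 12177) was 148.7, 134.3 and 150.5 CPM in Ctrl, 121.4, 130.1 and 119.4 CPM in Cu-Cys and 101.5, 99.27 and 100.3 CPM in Cadict. No 2 groups overlapped for either gene, but their orders differed, with Bnip3 highest in Cu-Cys and Bnip3l highest in Ctrl. Bnip3 fell by 2.97 ± 0.09 on the log2 scale in Cadict against Ctrl (adjusted p = 5.23e-14), a 7.85-fold difference. The log2 difference of Bnip3l was -0.53 ± 0.06 (adjusted p = 2.84e-07), not called for its size, and -1.48 on library totals, where it was called. Of the 50-base stretches in Bnip3 and Bnip3l transcripts (GENCODE M21), 16.5% and 20.8% also occur in other genes' transcripts, and 22.3% of the exon bases of Bnip3 overlap Gm45507 on the other strand. The sources used here do not say whether counting used strand, so the reads of such a pair cannot be told apart.

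Vegfa and Ndrg1 moved the other way. Vegfa (Entrez 22339), the secreted factor that drives growth of blood vessels, was 80.19, 83.03 and 79.01 CPM in Ctrl, 89.38, 87.66 and 89.52 CPM in Cu-Cys and 252.6, 256.4 and 269.3 CPM in Cadict. Ndrg1 (Entrez 17988), which responds to hypoxia and to other stresses, was 94.55, 94.89 and 99.28 CPM in Ctrl, 63.91, 70.42 and 70.37 CPM in Cu-Cys and 401.1, 391.1 and 350.4 CPM in Cadict. Each Cadict library exceeded every other library for both genes, also in TPM, where Vegfa was 74.09, 66.78 and 83.69 in Cadict and 55.89 to 59.43 in Ctrl. The log2 fold changes of Cadict against Ctrl were 1.68 ± 0.05 for Vegfa (adjusted p = 3.59e-14) and 1.98 ± 0.06 for Ndrg1 (adjusted p = 7.4e-14). On library totals they were 0.73 and 1.03, which left Vegfa under the fold limit, and on log2(TPM + 1) they were 0.35 and 0.67, which left both under it.

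Ankrd37 and Adm were scarce. Ankrd37 (Entrez 654824), a small ankyrin-repeat protein whose gene is a HIF-1 target, had 28, 26 and 37 expected counts in Ctrl, 29, 47 and 46 in Cu-Cys and 16, 20 and 19 in Cadict. The groups overlapped in CPM, and the log2 fold change of Cadict against Ctrl was 0.25 ± 0.27 (adjusted p = 0.393; 95% interval from -0.33 to 0.82), with the opposite sign on library totals (-0.70) and on log2(TPM + 1) (-0.93). Exons of Lrp2bp on the other strand overlap 22.7% of its exon bases. Adm (Entrez 11535), the vasodilator peptide adrenomedullin, had 0 counts in 8 libraries and 1 count in Cu-Cys replicate 2 and was not tested. A difference in Adm was not detectable at this depth.

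**Figure D2:**
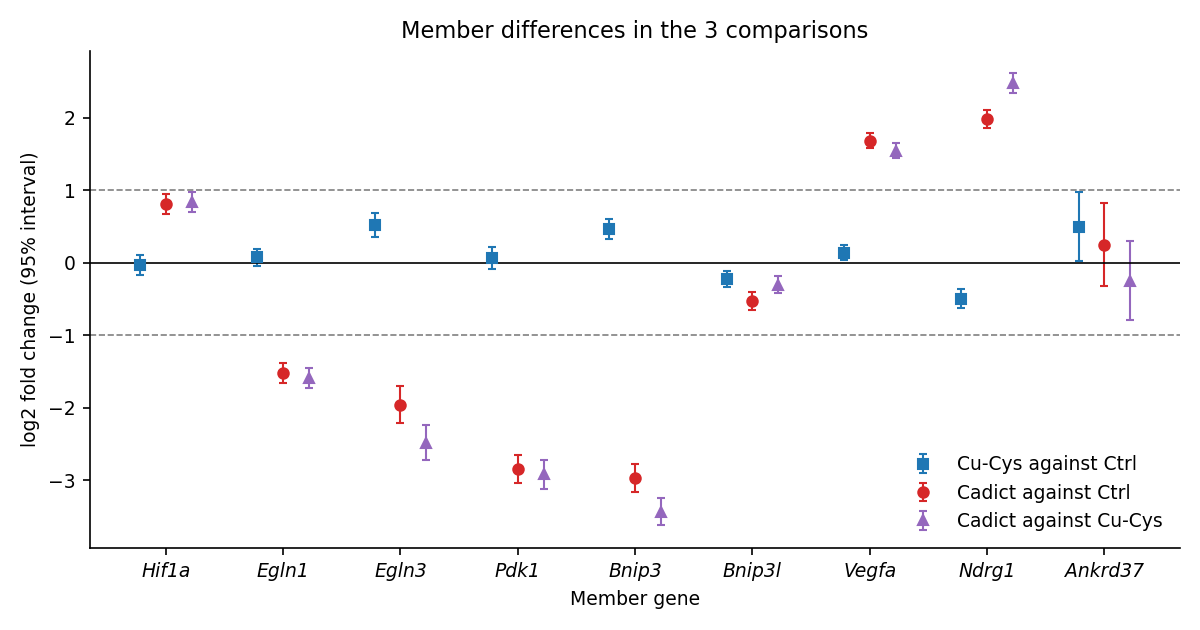
The log2 fold change of 9 members in the 3 comparisons, on TMM-scaled counts. Points are edgeR estimates, bars their 95% intervals and dashed lines a fold change of 2 in either direction. Bnip3, Pdk1, Egln3 and Egln1 lie under the lower line in both Cadict comparisons, Vegfa and Ndrg1 over the upper one, and no member passes either line in Cu-Cys against Ctrl. Hif1a lies above 0 in both Cadict comparisons on this scale and below 0 on library totals.

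Cu-Cys, without GOx and the GE11 coat, left the members much closer to Ctrl, as it did most genes tested. At the fold limit 0 of 9 members were called higher, where 0.167% of all genes tested were, and 0 of 9 lower, where 1.47% of all genes were. Counts of 0 are near these shares and are not particular to the members. By adjusted p of at most 0.05 alone, 3 members were called higher (Egln3, Bnip3 and Vegfa), where 22.6% of all genes were, and 2 lower (Ndrg1 and Bnip3l), where 22.4% of all genes were. These shares are read against a background in which more than 1 gene in 5 passed in each direction. The log2 fold changes were 0.52 ± 0.08 for Egln3 (adjusted p = 8.52e-05), 0.46 ± 0.07 for Bnip3 (adjusted p = 6.84e-05), -0.50 ± 0.06 for Ndrg1 (adjusted p = 1.67e-05) and -0.22 ± 0.05 for Bnip3l (adjusted p = 0.00381). Each of these 4 kept its sign on library totals and on log2(TPM + 1). Vegfa differed by 0.14 ± 0.05 (adjusted p = 0.0297) and by -0.01 on log2(TPM + 1). For Egln1 (0.07, 95% interval -0.04 to 0.19) and Pdk1 (0.07, 95% interval -0.08 to 0.22) the libraries of the groups overlapped.

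Cadict against Cu-Cys sets the complete drug beside its copper and cystine part. Of the 9 tested members 2 were called higher, where 18.6% of all genes tested were, and 4 lower, where 23.6% of all genes were. The log2 fold changes were -3.44 ± 0.09 for Bnip3, -2.92 ± 0.09 for Pdk1, -2.48 ± 0.11 for Egln3, -1.59 ± 0.06 for Egln1, 1.55 ± 0.05 for Vegfa and 2.48 ± 0.06 for Ndrg1, with adjusted p between 1.18e-14 and 1.12e-11. Hif1a was at 0.84 ± 0.06 with TMM and -0.05 on library totals. Bnip3l was at -0.30 ± 0.06 and Ankrd37 at -0.25 ± 0.26 (adjusted p = 0.367). This comparison shares the Cadict libraries with Cadict against Ctrl and is not a second test of them.

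**Figure D3:**
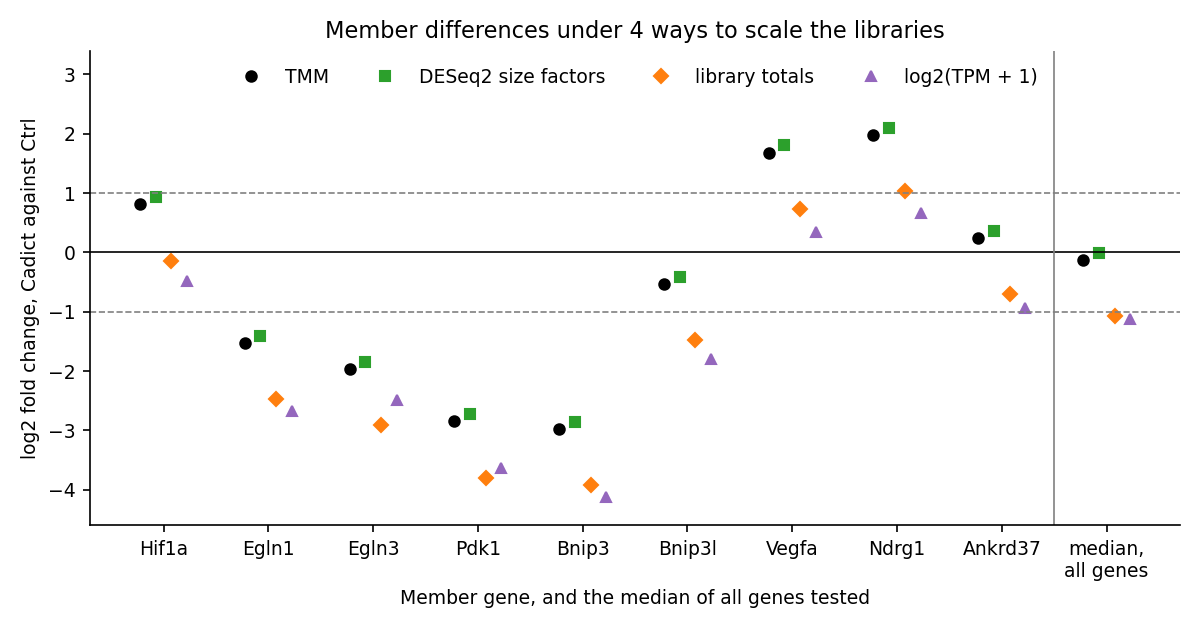
The log2 fold change of each member in Cadict against Ctrl, computed with TMM, DESeq2 size factors, library totals and log2(TPM + 1), beside the median of all 11949 genes tested. Dashed lines mark a fold change of 2. Bnip3, Pdk1, Egln3 and Egln1 stay under the lower line on all 4 scales, Ndrg1 and Vegfa stay above 0, and Hif1a and Ankrd37 cross 0.

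Set side by side per length, as TPM, the members ranked differently in the groups. Bnip3 was the most abundant member in Ctrl, at 161.5 ± 14.3 TPM (SD, n = 3), followed by Bnip3l at 105.9 ± 7.14. Ndrg1 (80.17 ± 1.52 TPM) and Hif1a (80.16 ± 3.05 TPM) came next and did not differ beyond their spread. In Cadict the order began with Ndrg1 at 128.4 ± 10.3 TPM, Vegfa at 74.85 ± 8.48 and Hif1a at 57.51 ± 10.7. There Bnip3 followed Bnip3l with 8.343 ± 1.38 TPM. Egln1, at 7.48 ± 1.13, was within that spread between libraries but below Bnip3 in each Cadict library. Bnip3 was 9.12, 6.75 and 9.16 TPM in these libraries and Egln1 7.47, 6.36 and 8.61 TPM. Egln3 had 1.14 ± 0.0917 TPM in Cadict and 10.97 ± 0.962 in Ctrl. Vegfa and Hif1a, which were 58.19 and 80.16 TPM in Ctrl, stood in the opposite order in Cadict.

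Ratios between 2 members within a library do not depend on how libraries are scaled. The TPM ratio of Bnip3 to Bnip3l was 1.572, 1.496 and 1.503 in Ctrl, 2.325, 2.498 and 2.529 in Cu-Cys and 0.2946, 0.256 and 0.2838 in Cadict. The 3 groups did not overlap, and the exact permutation test gave p = 0.1 in each comparison, the smallest that 3 against 3 libraries allow (adjusted p = 0.115 over 15 tests). Vegfa to Hif1a was 0.7264 ± 0.0278 in Ctrl, 0.8132 ± 0.0492 in Cu-Cys and 1.317 ± 0.143 in Cadict (SD, n = 3), again without overlap. Egln3 to Egln1 was 0.2084 ± 0.0103 in Ctrl, 0.2848 ± 0.00455 in Cu-Cys and 0.154 ± 0.0192 in Cadict, with no library shared between the ranges of the groups. Pdk1 to Bnip3 overlapped between Ctrl (0.2368 ± 0.0167) and Cadict (0.2575 ± 0.0327; exact permutation p = 0.5) and was lower in every Cu-Cys library (0.1803 ± 0.0046). Ankrd37 to Hif1a was 0.05614 ± 0.0104 in Ctrl, 0.07996 ± 0.0142 in Cu-Cys and 0.03378 ± 0.011 in Cadict, from few Ankrd37 counts.

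**Figure D4:**
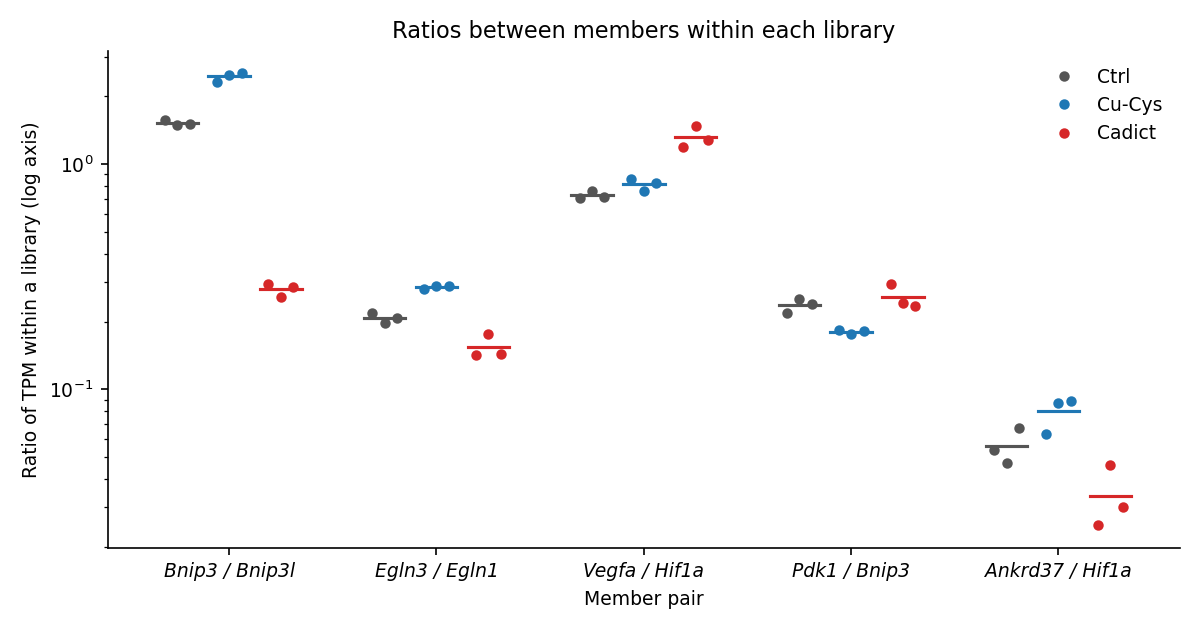
Ratio of TPM between 2 members within each library, on a log axis. Each point is 1 library, each bar the mean of a group's 3 libraries. Bnip3 to Bnip3l separates the 3 groups, at a mean of 1.52 in Ctrl, 2.45 in Cu-Cys and 0.278 in Cadict, and Pdk1 to Bnip3 overlaps between Ctrl and Cadict.

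Genes of the oxygen-sensing machinery around the members were called in both directions. Of 21 genes for HIF subunits and regulators 17 were tested, and in Cadict against Ctrl 5 were called higher and 7 lower, where 20.7% and 27.1% of all genes were, with a median log2 fold change of -0.11 beside -0.13 over all genes. Arnt, the partner subunit, was 67.88 CPM in Ctrl and 25.49 in Cadict and fell by 1.41 ± 0.07 on the log2 scale (adjusted p = 2.71e-11). Vhl fell by 1.58 ± 0.09, the third hydroxylase Egln2 by 1.44 ± 0.12 and Hif1an, the asparagine hydroxylase that blocks HIF coactivators, by 1.13 ± 0.08. Cul2 fell by 1.55 ± 0.06, from 80.17 CPM in Ctrl to 27.3 in Cadict, and Usp20 and Arnt2 were also called lower. The genes that rose were Siah2, a ubiquitin ligase that acts on the prolyl hydroxylases, at 2.80 ± 0.06 (24.18 CPM in Ctrl and 169 in Cadict), Rack1, an abundant ribosome-bound scaffold, at 2.22 ± 0.07, the elongins Eloc, at 2.09 ± 0.09, and Elob, and Rbx1, the RING subunit of the VHL ubiquitin ligase, at 1.87 ± 0.07. Elob was 709.5 TPM in Ctrl and 659.7 in Cadict, so its direction turned on that scale. Epas1, which encodes HIF-2 alpha, had 0 counts in 7 libraries and 1 count in each of 2 libraries. On library totals 3 of the 17 were called higher and 9 lower, where 828 and 6148 of all 11949 genes were.

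Among 19 glycolytic HIF-1 targets 17 were tested, and 4 were called higher and 4 lower in Cadict against Ctrl, with a median log2 fold change of 0.49. These shares were near the 20.7% and 27.1% of all genes and are not particular to the list. The glucose transporter Slc2a1 rose by 1.99 ± 0.05 (81.35 CPM in Ctrl and 322.4 in Cadict), and was also higher in TPM, at 77.41 and 124.2. Pfkl, the liver-type phosphofructokinase, fell by 3.24 ± 0.07, from 134 to 14.2 CPM. Gapdh was at 1.43 ± 0.06 and Pkm at 1.19 ± 0.05, both called higher, but in TPM Pkm was 2470 in Ctrl and 2270 in Cadict and Gapdh 5263 and 5683, and 24.7% and 25.8% of the 50-base stretches of Gapdh and Pkm occur in other genes' transcripts. Ldha, which makes lactate, was at 0.49 ± 0.07 in TMM-scaled counts and not called, and at 2068 TPM in Ctrl and 1164 in Cadict. On library totals 1 of the 17 was called higher and 6 lower, beside the 828 and 6148 of all genes. With Cu-Cys 0 of these 17 passed the fold limit, where 0.167% of all genes were called higher and 1.47% lower. By adjusted p of at most 0.05 alone 12 of the 17 were higher and 2 lower with Cu-Cys, where 22.6% and 22.4% of all genes were.

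**Figure D5:**
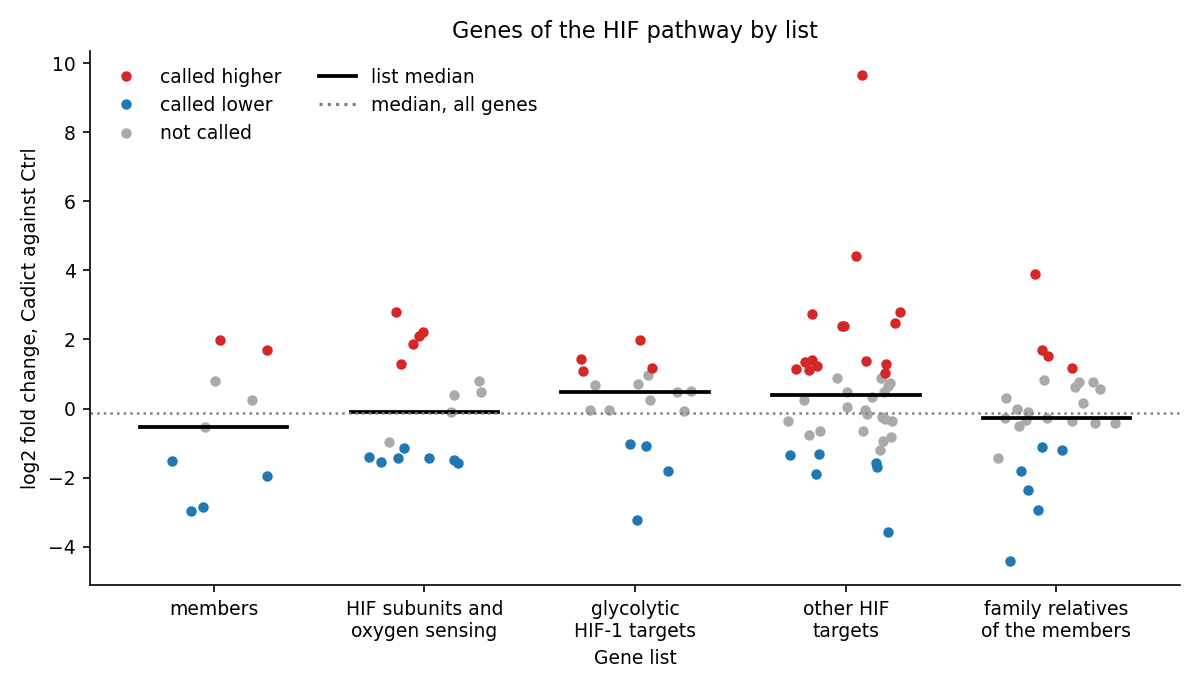
The log2 fold change in Cadict against Ctrl, on TMM-scaled counts, of each tested member and of each tested gene of 4 lists of the pathway. Red points were called higher, blue points lower and grey points not, black bars are list medians and the dotted line the median of all genes tested, at -0.13. All 5 groups hold genes called in both directions, and the highest point is Hmox1 at 9.65. On library totals the medians of all 5 groups were negative, as was that of all genes tested, at -1.08.

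Of 49 other HIF targets 48 were in the table and 42 were tested, and 15 were called higher and 6 lower in Cadict against Ctrl, where 20.7% and 27.1% of all genes were, with a median of 0.40. Hmox1, heme oxygenase 1, which also answers oxidative and metal stress, was 564, 535 and 504 expected counts in Ctrl, 2092, 2384 and 2650 in Cu-Cys and about 210500 to 223400 in Cadict. Its log2 fold change against Ctrl was 9.65 ± 0.10 with Cadict and 2.23 ± 0.08 with Cu-Cys (adjusted p = 1.22e-10). With Cu-Cys no other gene of this list was called, where 0.167% of all genes were called higher and 1.47% lower. Rab20, a GTPase, rose by 4.43 ± 0.08 in Cadict and was at 1.00 ± 0.10 in Cu-Cys, just under the fold limit. Ier3, an early response gene, rose by 2.80 ± 0.07, and Zfp395 fell by 3.59 ± 0.11, from 34.56 to 2.878 CPM. P4ha1, a collagen prolyl hydroxylase and frequent hypoxia readout, was called higher at 1.22 ± 0.05 in TMM-scaled counts but was 151 TPM in Ctrl and 143.7 in Cadict. Ddit4, an inhibitor of mTORC1, was at 0.87 ± 0.11 and not called, with 20.08 TPM in Ctrl and 14.85 in Cadict. On library totals 7 of the 42 were called higher and 16 lower, beside the 828 and 6148 of all genes.

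Of 30 relatives and partners of the members 27 were tested, and 4 were called higher and 6 lower in Cadict against Ctrl, where 20.7% and 27.1% of all genes were, with a median of -0.27. On library totals 1 was called higher and 14 lower, beside the 828 and 6148 of all genes. Against the rise of Ndrg1, Ndrg4 fell by 1.79 ± 0.07 and Ndrg3 was called lower, at 58.61 CPM in Ctrl and 25.51 in Cadict. In the Pdk1 family, Pdk2 had 160, 130 and 138 expected counts in Ctrl and 4, 5 and 1 in Cadict and was called lower (adjusted p = 1.15e-09), Pdk3 was at -0.36 ± 0.06 and not called, and Pdk4 was too scarce to test. Of the complex on which these kinases act, the subunits Pdhb and Dlat were called higher at 1.53 ± 0.05 and 1.19 ± 0.05, with Dlat at 49.24 TPM in Ctrl and 45.6 in Cadict, so that its sign turned on that scale. The other subunits tested, Pdha1, Pdhx and Dld, were not called, at 0.64, 0.57 and 0.76, and were lower in mean TPM in Cadict than in Ctrl. With Cu-Cys 0 of the 27 relatives passed the fold limit, where 0.167% of all genes were called higher and 1.47% lower. Over the 4 lists the genes called in that comparison were Hmox1 and Arnt2, a neural relative of Arnt, which was 6.102 CPM in Ctrl, 2.154 in Cu-Cys and 2.188 in Cadict and was called lower in Cu-Cys (adjusted p = 1.11e-06).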

How the data were processed

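RNA of MC38 cells (3 Ctrl, 3 Cu-Cys and 3 Cadict libraries) was enriched for mRNA and sequenced by the authors. Labels and methods differ on the kit and the instrument (a column kit and DNA nanoballs against TRIzol and Novaseq). The submitters' processing notes name HISAT2 2.1.0, Bowtie2 2.3.4.3 and RSEM 1.3.1 and the builds GRCm39 and GRCh38.p13, without roles. The authors deposited 1 table with, per gene and library, an expected count without normalization, a TPM, an FPKM and a signal value, which is the count divided by 1 size factor per library. Columns named CC and CCGE were matched to Cu-Cys and Cadict, the second from its components, and 12 columns of group averages were not used.

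Expected counts were rounded and tested in R 4.3.3 with edgeR 4.0.16 (filterByExpr, TMM, 1 quasi-likelihood fit of all 9 libraries), adjusted by Benjamini-Hochberg over 11949 genes and called at the study's threshold (2-fold, adjusted p no higher than 0.001, two-sided). The study used DESeq; DESeq2 1.42.0 and limma 3.58.1 served as alternatives, with log2 pseudocounts of 1 and 0.1. SE are of the log2 fold change. The script was tested on simulated data drawn from the mean Ctrl profile, with as many genes raised as lowered. That simulation did not test the scaling of libraries as unlike as those of Cadict and Ctrl. Ratios of TPM were compared by a two-sided exact permutation test. The members and lists were chosen with earlier results of these data known. Text names all members, the 4 genes of each list with the largest called change at a mean of at least 10 CPM and without overlap, those called in Cu-Cys against Ctrl, and 10 much-used pathway genes. Elob, Cul2, Usp20, Pdk2, Pdk3, Pdk4, Pdha1, Pdhx and Dld were added after their values were seen. No libraries were duplicates. Correlations of same-numbered libraries ran from -0.148 to 0.145, so numbers were not treated as pairs.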

Additional observations from a re-analysis of the deposited data

How the results depend on the processing

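Bnip3, Pdk1, Egln3 and Egln1 were called lower in both Cadict comparisons on every scale. The calls of Vegfa, Ndrg1, Bnip3l and Ankrd37 in these comparisons moved with the scale. On TPM and FPKM the test changed too, from edgeR to limma. Expected counts are estimates and 3 libraries a group limit precision, Ankrd37 and Adm are limited by depth, and no setting measured RNA per cell. Without any 1 library, 2 members were called higher and 4 lower in both Cadict comparisons and 0 in Cu-Cys against Ctrl. The replicate block gave the same counts for the members (2 and 4, 0 and 0, 2 and 4) and moved no count in the lists by over 1.5 times. DESeq2 size factors, the DESeq2 Wald test, both filters on low counts, the deposited size-factor counts and fits of only the 2 groups compared also gave 2 and 4 in Cadict against Ctrl. The cause of the shifts below was not tested.

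Counts below are given as higher and lower, for the members, the oxygen-sensing, glycolytic, other-target and relatives lists and all genes, in this order. On library totals, Cadict against Ctrl gave 1 and 5, 3 and 9, 1 and 6, 7 and 16, 1 and 14, and 828 and 6148; Cadict against Cu-Cys gave 1 and 6, 3 and 8, 0 and 6, 6 and 15, 1 and 12, and 688 and 5705. With limma on log2(TPM + 1), Cadict against Ctrl gave 0 and 5, 1 and 9, 0 and 7, 6 and 16, 0 and 13, and 389 and 6475; Cu-Cys against Ctrl gave 0 and 0 in the oxygen-sensing list, 1 and 1 in other targets and 9 and 108 over all genes; Cadict against Cu-Cys gave 1 and 6, 1 and 8, 0 and 8, 4 and 15, 0 and 11, and 359 and 5785. With log2(TPM + 0.1) the counts were 0 and 6, 1 and 9, 0 and 8, 7 and 19, 1 and 16, and 502 and 7202 in Cadict against Ctrl, 1 and 1 for other targets in Cu-Cys against Ctrl, and 1 and 6, 1 and 8, 0 and 8, 4 and 19, 0 and 15, and 466 and 6633 in Cadict against Cu-Cys. With log2(FPKM + 1) they were 1 and 5, 2 and 8, 1 and 5, 7 and 13, 0 and 10, and 613 and 4956 in Cadict against Ctrl, 0 and 0 for the oxygen-sensing list and 11 and 60 over all genes in Cu-Cys against Ctrl, and 1 and 5, 2 and 8, 0 and 5, 6 and 12, 0 and 10, and 472 and 4499 in Cadict against Cu-Cys.

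By adjusted p of at most 0.05 without a fold limit, Cadict against Ctrl gave 3 and 5, 8 and 8, 10 and 4, 22 and 15, 10 and 12, and 4857 and 5627, Cu-Cys against Ctrl gave 3 and 2, 4 and 3, 12 and 2, 20 and 7, 5 and 8, and 2701 and 2680, and Cadict against Cu-Cys gave 3 and 5, 8 and 8, 9 and 6, 21 and 15, 11 and 12, and 4819 and 5444. In Cadict against Ctrl 2 glycolytic genes were lower with DESeq2 size factors, the DESeq2 Wald test and the deposited size-factor counts, and 3 relatives were lower with at least 10 counts in every library. In Cadict against Cu-Cys 3 relatives were lower by the DESeq2 Wald test and 2 with at least 10 counts in every library. In Cu-Cys against Ctrl 2 other targets were higher with DESeq2 size factors, with no filter and with the deposited size-factor counts, and 1 to 2 when 1 library was left out (2 without Ctrl replicate 2, Cu-Cys replicate 1 or Cu-Cys replicate 3). All genes lower in that comparison were 93 with the deposited size-factor counts and 104 with at least 10 counts in every library.

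Signs turned for some members. Hif1a in Cadict against Ctrl was -0.14 on library totals, -0.49 and -0.50 on log2(TPM + 1) and log2(TPM + 0.1) and -0.15 on log2(FPKM + 1), and in Cadict against Cu-Cys -0.0459, -0.32, -0.33 and -0.0534. Ankrd37 in Cadict against Ctrl was -0.70, -0.93, -1.22 and -0.60 on these scales. In Cu-Cys against Ctrl, log2(TPM + 1) and log2(TPM + 0.1) gave -0.0069 and -0.007 for Vegfa, -0.0683 and -0.0695 for Egln1 and -0.0706 and -0.0723 for Pdk1, log2(FPKM + 1) gave -3.79e-05 for Pdk1, and the deposited size-factor counts gave 0.0002 for Hif1a.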
